A study of Homo sapiens with 8 samples.

Results

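The basal transcriptome of A549 cells was described from the 4 control siRNA libraries of a series of 8. The 4 libraries were chosen by their labels alone: 2 transfections with a first control duplex and 2 with a second, each with 5 nmol siRNA and Lipofectamine RNAiMAX in 250000 cells. Small interfering RNAs (siRNAs) are double-stranded reagents that silence transcripts of matching sequence, and a control duplex is one meant to match none. A549 is an established human lung adenocarcinoma line that carries a loss-of-function mutation in KEAP1, so every library shares that background, and the line was not authenticated or tested for mycoplasma for the study. A mock transfection without siRNA was read beside the controls as a single further library, and the 3 libraries with siRNA against NFE2L2 were not used.

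NRF2, the protein made from NFE2L2, is a transcription factor that turns on genes for glutathione and thioredoxin synthesis, NADPH supply, detoxification and iron storage. In unstressed cells KEAP1 binds NRF2 and hands it to a CUL3 ubiquitin ligase for degradation, and loss of KEAP1 lets NRF2 persist in the nucleus. There it pairs with small MAF proteins and binds the antioxidant response element, a short motif that BACH1 can occupy as a repressor. KEAP1 and NFE2L2 mutations recur in lung cancers, and A549 is a common model of this state.

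The 4 libraries held 35525141 to 38957434 reads on genes. Of these, 88.8 to 91.6% fell on protein-coding genes. Levels were compared between genes as coding TPM, in which reads were divided by exon length and scaled so that the 19404 coding genes of a library sum to 1000000. A gene was called on when it reached 1 TPM in each of the 4 libraries, at the floor when it had at most 3 reads in each, and low otherwise. In the following, 4 values for a gene run in the order duplex 1 replicates 1 and 2, then duplex 2 replicates 1 and 2, and an error is the SD over these 4 libraries.

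Of the 19404 coding genes, 11943 (61.55%) were on, 2625 (13.53%) were low and 4836 (24.92%) were at the floor, 2677 of them without any read. The median level of the genes that were on was 27.6 TPM, and 111 genes reached a mean of 1000 TPM. Gene lists for redox metabolism, lung, hepatic-like and growth factor genes, with small lists of other cell types, 9p21 and reference genes, held 571 distinct coding genes with an identifier, of which 333 were on, 120 low and 118 at the floor. By area, 138 of 188 redox genes, 53 of 97 lung genes, 46 of 104 hepatic-like genes and 79 of 147 growth factor genes were on, so the redox share (73.4%) was the highest and the hepatic-like share (44.2%) the lowest of the 4.

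How far this baseline moved with the control duplex was tested over 17261 genes with edgeR's quasi-likelihood test. Of these, 566 (3.28%) passed an adjusted p of 0.01, 305 (1.77%) higher and 261 (1.51%) lower with duplex 2. With scaling by library size alone there were 689, of which 32.1% were lower, against 46.1% with TMM, while DESeq2 called 378 higher and 400 lower (51.4%) and edgeR at an adjusted p of 0.05 called 812 higher and 924 lower (53.2%). The calls rested on both duplex 2 libraries: without duplex 2 replicate 1, or without duplex 2 replicate 2, edgeR called 0 genes, with 2103 and 2729 at an unadjusted p under 0.05. Without duplex 1 replicate 1 it called 1340 genes and without duplex 1 replicate 2 it called 2056. The lone library of a duplex is then assumed to vary like the other pair. The labels name the replicates only by number, so p-values measure the spread between these transfections, which may be technical, and the duplex and any day or batch of its transfection cannot be told apart.

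**Figure D1:**
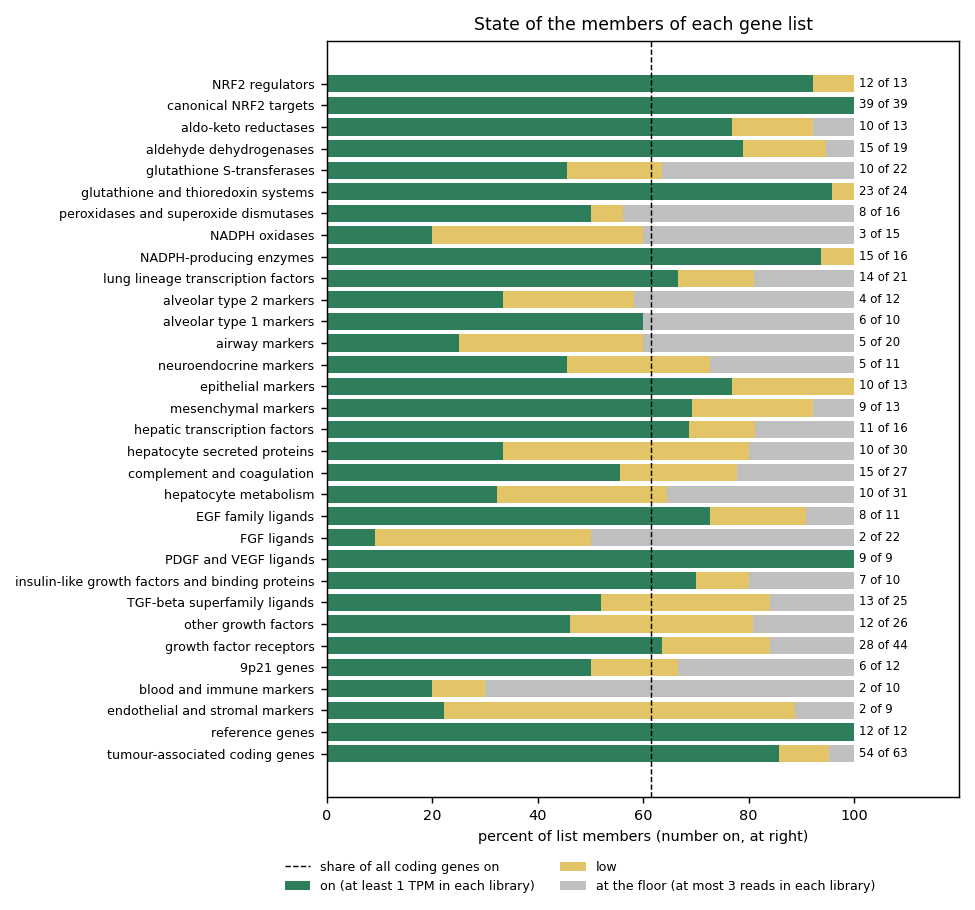
Share of the coding members of each gene list (rows, in percent) that were on, low or at the floor in the 4 control siRNA libraries, with the number on at the right and a dashed line at the share of all coding genes that were on, 61.55%. Canonical NRF2 targets (39 of 39), PDGF and VEGF ligands (9 of 9) and reference genes (12 of 12) were on throughout, whereas 2 of 22 FGF ligands were.

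The 20 most abundant genes by reads were a mixture of structural and untyped RNAs and of coding genes for redox enzymes, keratins, actins and glycolysis. The highest row, ENSG00000258486.2, has no name or type in the annotation used, and stood at 24139, 19507, 19925 and 13608 CPM, reads scaled to a total of 1000000 per library. RN7SK, a small nuclear RNA that restrains transcription elongation, stood at 13468 ± 1437 CPM (n = 4) and RN7SL2, an RNA of the signal recognition particle, at 12791 ± 3027 CPM. ENSG00000259001, typed as an lncRNA in the annotation used here (12255 ± 2522 CPM), and a further row without a type, ENSG00000269900.2 (12078 ± 1776 CPM), completed the first 5. The 10 most abundant genes took 11.2, 10.2, 9.79 and 7.93% of the reads on genes, and the 5 rows just named, none of them typed as coding, 8.23, 7.26, 7.22 and 5.24%, so duplex 2 replicate 2 was the lowest library for both.

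The coding genes among the 20 were ALDH1A1, FTL, GAPDH, KRT8, AKR1B10, ACTG1, KRT18, ACTB, ENO1, PKM, EEF1A1, KRT81, ANXA2 and FLNA, from 7691 CPM for ALDH1A1 to 2430.4 CPM for FLNA. Per exon length the order changed. FTL, the ferritin light chain that stores iron (chromosome 19 from 49468566 to 49470136 on the plus strand, GRCh37), was the highest of all coding genes at 43808, 43193, 35298 and 36702 TPM (mean 39750.2 ± 4375, n = 4). Both duplex 1 libraries lay above both duplex 2 libraries for FTL, and the difference of −0.34 on the log2 scale did not pass the edgeR test between duplexes (adjusted p = 0.0339). ALDH1A1, a retinaldehyde dehydrogenase (chromosome 9 from 75515587 to 75695358 on the minus strand), was the second at 13329, 12566, 13418 and 13169 TPM, values that stayed within a narrow band. AKR1B10, an aldo-keto reductase that reduces retinal and other aldehydes (chromosome 7 from 134212319 to 134226164 on the plus strand), followed at 12797, 11156, 10405 and 9869 TPM, highest in duplex 1 replicate 1.

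TMSB10 (10095 ± 360.4 TPM), GAPDH (9681 ± 1242), the mitochondrial MT-CO3 (8519.6 ± 569), the hair keratin KRT81 (6593 ± 291), KRT18 (5394 ± 147), MT-CO2 (4274 ± 209) and ACTG1 (4156 ± 103) filled ranks 4 to 10 (mean ± SD, n = 4). Some of these levels depend on how reads shared with other genes, processed copies and paralogs among them, were counted: of the 50-base words in the transcript used, 18.5% of FTL, 36.7% of KRT18, 20.4% of GAPDH and 17.3% of AKR1B10 also occur in other genes of the files.

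Among 12805 lncRNAs, 1353 had at least 10 reads in each of the 4 libraries and 9837 were at the floor. MALAT1, a nuclear speckle RNA, stood at 3542, 3088, 5497 and 3791 CPM, and its duplex 2 replicate 1 value was the highest of the 4. NEAT1, which builds paraspeckles, stood at 1271 ± 248 CPM (n = 4). The other 7 of the 10 most abundant were SNHG29, NORAD, SNHG3, GAS5, SNHG16, ZFAS1 and FGD5-AS1, from 527 down to 162 CPM, several of which host small nucleolar RNAs.

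Most NRF2 regulators were on (12 of 13). NFE2L2 itself (ENSG00000116044.11, chromosome 2 from 178083395 to 178257484 on the minus strand) held 3974, 4100, 4166 and 4227 reads, or 33.2, 34.4, 37.4 and 37.96 TPM (mean 35.7 ± 2.33, n = 4). It ranked 5060 of 19404 coding genes, at percentile 65.3 of the coding genes above the floor, and no library stood apart. KEAP1 (ENSG00000079999.9, chromosome 19 from 10596801 to 10614234 on the minus strand) stood at 116, 119, 109 and 111 TPM, rank 1663. The order of NFE2L2 and KEAP1 depends on the gene length. The exons of NFE2L2 joined over all transcripts span 14975 bases and its canonical transcript 2446, and with canonical lengths, chosen after seeing the data, NFE2L2 stood at 119.4 TPM on average (rank 1463) and KEAP1 at 86.6 TPM (rank 2095). The KEAP1 transcript was thus present in every library, and these counts do not bear on the mutated protein. The adaptor SQSTM1, which sequesters KEAP1 and is also an NRF2 target, was the highest of the list at 575, 683, 742 and 814 TPM, lowest in duplex 1 replicate 1 and highest in duplex 2 replicate 2. NFE2L1, the related factor of the proteasome response, stood at 208, 201, 209.9 and 215 TPM, and the small MAF protein gene MAFK, an NRF2 partner, at 161, 167, 218 and 200.4 TPM.

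The competing repressor BACH1 (41.4 TPM) and the ligase scaffold CUL3 (66.98 TPM) were on, and the lymphoid BACH2 was low with 5 to 16 reads. None of the 13 regulators passed the edgeR test between duplexes.

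Antioxidant response elements were looked up in the promoters of the canonical NRF2 targets. The core TGACNNNGC was searched on both strands from 250 bases before to 50 bases after each start in RefSeq GRCh38.p14, and its first 7 letters can overlap the AP-1 motif TGACTCA. Of the 40 listed targets 28 had an entry, and 11 of these (39.3%) held the core, against 4384 of 27305 genes of all kinds (16.1%). The 30-base windows of 6 of these 11 are shown as examples whose levels are given below, with the core in capitals, 5′ to 3′ on the strand given.
GCLM, chr1:93909445-93909474, plus strand, core from 34 bases before the start: ctggaagacaaTGACTAAGCagaaatcgta
TXNRD1, chr12:104286920-104286949, minus strand, core from 102 bases before the start: cagagtcagaaTGACAAAGCagaaatccac
ME1, chr6:83431169-83431198, minus strand, core from 137 bases before the start: tctcctgccaTGACTCAGCgcttctcgcag
GPX2, chr14:64942848-64942877, plus strand, core from 122 bases before the start: catccccaggaTGACTTAGCaaaaacaggt
CBR1, chr21:36069855-36069884, minus strand, core from 159 bases before the start: gccagctagccTGACTTTGCagaacccgca
PIR, chrX:15493288-15493317, plus strand, core from 27 bases after the start: tagcctcaccgTGACTCAGCgcttcgcggc
The cores of ME1 and PIR contain TGACTCA. A match describes letters in the reference and no binding was measured here.

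All 39 canonical NRF2 targets with a coding identifier were on. Their median level was 545 TPM against 27.6 TPM for all coding genes that were on, and their median percentile was 98.41. The list had 17 members among the 194 highest coding genes (the top 1%) and 33 among the 1940 highest (the top 10%). It was drawn up with earlier results of these data known, so these shares describe the list and are no independent test. Ranks of the targets depend on the gene length too, and those given use the joined exons. With canonical lengths, chosen after seeing the data, NQO1 ranked 51, TXN 53, PRDX1 46, GCLM 1367 and AKR1C3 21. UGDH (rank 201), GPX2 (198) and GSR (357) then left the top 1% and PTGR1 (187) entered it. For comparison, 12 widely used reference genes, from GAPDH to TBP, had a median of 469.7 TPM and a median percentile of 98.04. The 39 targets took 8.90, 8.53, 7.66 and 7.73% of coding TPM (mean 8.21 ± 0.61%, n = 4), and 4.06 to 4.52% without FTL.

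**Figure D2:**
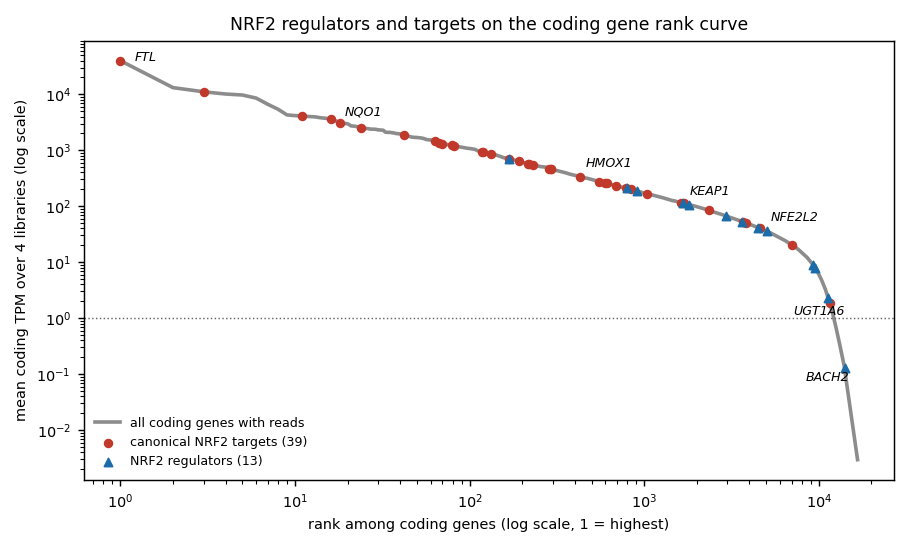
Mean coding TPM over the 4 control siRNA libraries against rank among coding genes, both on log scales, with canonical NRF2 targets as red circles and NRF2 regulators as blue triangles on the curve of all coding genes with reads and a dotted line at 1 TPM. FTL lies at rank 1, NQO1 at rank 16, HMOX1 at rank 427, NFE2L2 at rank 5060 and UGT1A6 at rank 11570.

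Iron and heme genes of the list included FTL and the ferritin heavy chain gene FTH1, which stood at 3689, 3786, 4466 and 4418 TPM (rank 11) and shares 41.3% of its 50-base words with other genes. Its duplex 2 values lay above its duplex 1 values, and the difference did not pass the test (edgeR adjusted p = 0.149). HMOX1, which opens the heme ring, stood at 332, 324, 351 and 346 TPM (rank 427), and BLVRB, which reduces the resulting pigment, at 591, 571, 497 and 522 TPM.

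Thioredoxin genes were among the most abundant: TXN, the small disulfide reductase itself, stood at 2979, 3227, 2915 and 3109.97 TPM (rank 18) and PRDX1, a peroxidase that it recharges, at 2866, 2763, 2226 and 2228 TPM (rank 24). TXNRD1, which passes electrons from NADPH to thioredoxin, reached 1207, 1274, 1368 and 1412 TPM. All of TXN, PRDX1 and TXNRD1 lay within the top 1% of coding genes. SRXN1, which repairs overoxidized peroxiredoxins, was lower at 52.1, 59.2, 44.8 and 53.1 TPM, and 90.6% of its 50-base words occur in another gene of the files, so its count is uncertain.

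The glutathione genes of the list stood below TXN, PRDX1 and TXNRD1 on average. The catalytic and modifier subunits of the enzyme that joins glutamate to cysteine, GCLC and GCLM, stood at 117, 113, 112 and 108 TPM (rank 1695) and 207, 209, 218 and 212 TPM (rank 783). The order of these 2 genes depends on the gene length. With canonical lengths, GCLC stood at 139.8 TPM on average (rank 1236) and GCLM at 128.1 TPM (rank 1367). SLC7A11, which imports cystine, stood at 240.3, 212, 302 and 274 TPM and GSR, which reduces oxidized glutathione, at 695, 669.9, 589 and 587 TPM. The gastrointestinal glutathione peroxidase gene GPX2 differed most between the duplexes of the 40 targets tested, at 1289, 968, 596 and 569.9 TPM. Both duplex 1 values lay above both duplex 2 values, a log2 difference of −1.02 (standard error 0.11, adjusted p = 0.000504) by the edgeR quasi-likelihood test.

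Genes of NADPH supply were high in every library. PGD, an oxidative step of the pentose phosphate pathway, stood at 1450.2, 1305, 1380.2 and 1344 TPM. The non-oxidative enzymes TKT (976, 926, 896 and 911 TPM) and TALDO1 (464, 469, 447 and 468 TPM) were within the top 10%. Malic enzyme ME1 stood at 268, 253, 274 and 253 TPM, and the isocitrate dehydrogenase IDH1, at 684, 597, 509 and 501 TPM, was lower with duplex 2 (edgeR log2 difference −0.41, standard error 0.08, adjusted p = 0.00986).

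NQO1, the quinone reductase often used as an NRF2 readout (chromosome 16 from 69740899 to 69760571 on the minus strand), stood at 3783, 3609.7, 3473 and 3460.04 TPM and rank 16, and its 4 libraries lay within a narrow band (SD 151 TPM, n = 4). AKR1C3 (1667, 1637, 2165 and 2138 TPM), AKR1C2 (1359.5, 1188, 1158 and 1107 TPM) and AKR1C1 (551, 449, 444 and 409 TPM) reduce steroids and carbonyls and share 18.6, 47.3 and 22.7% of their 50-base words with other genes, so their order is uncertain. ALDH3A1, an aldehyde dehydrogenase of cornea and lung tumours, stood at 1516, 1365, 1405 and 1458 TPM. The carbonyl reductase gene CBR1 (308, 317, 233 and 245 TPM) was lower with duplex 2 (edgeR log2 difference −0.46, standard error 0.06, adjusted p = 0.00201), and its relative CBR3 stood at 18.3, 20.8, 21.6 and 21.8 TPM.

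Further detoxification genes were PTGR1 (669.97, 558, 542 and 501 TPM), EPHX1 (256, 231, 231 and 214 TPM), UGDH, which makes UDP-glucuronate (1006, 875, 905 and 886 TPM), and CYP4F11 (88.6, 81.4, 84.5 and 82.5 TPM). The export pumps for glutathione conjugates followed the order ABCC2 (532, 475, 457 and 412 TPM), ABCC3 (212, 188, 217 and 188 TPM) and ABCC1 (179.6, 162, 176 and 151 TPM). The ranges of the 3 pumps over the 4 libraries did not overlap. The nuclear or regulatory members PIR (120.4, 117, 113 and 113 TPM), NR0B1 (49.1, 54.1, 43.9 and 55.5 TPM) and OSGIN1 (41.4, 43.2, 37.4 and 39.3 TPM) lay below most of the enzymes. The lowest member, UGT1A6, stood at 2.45, 1.73, 1.72 and 1.59 TPM (rank 11570). It shares 59.7% of its words with other UGT1A transcripts, which use the same last exons, and its count is uncertain.

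**Figure D3:**
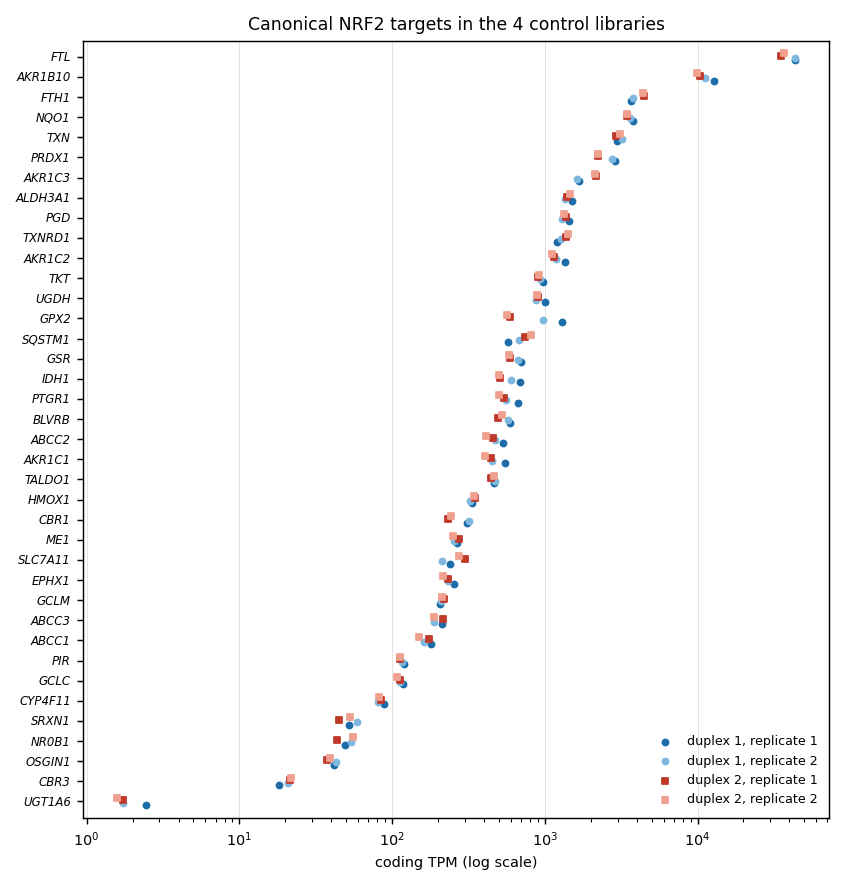
Coding TPM (log scale) of the canonical NRF2 targets named in the text in each of the 4 control siRNA libraries, 1 point per library and 1 row per gene in order of mean TPM. The levels run from FTL (39750.2 TPM on average) to UGT1A6 (1.87 TPM), and the points of GPX2 spread from 569.9 to 1289 TPM.

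A second list held 65 coding genes that the study had associated with NFE2L2 mutation in tumours, so it was chosen on other samples, and it shares many members with the canonical targets. Of its 63 members with a coding identifier in the annotation, 54 were on, 6 were low and 3 (CLDN8, SOST and ADH7) were at the floor. The median percentile of the 60 members above the floor was 84.28, with 13 members in the top 1% and 29 in the top 10%. Its 4 highest members, FTL, AKR1B10, NQO1 and TXN, are canonical targets. ETFB, a mitochondrial electron carrier, was lower with duplex 2 (edgeR log2 difference −0.36, standard error 0.06, adjusted p = 0.00769) and SAMD5, a gene of little known function, was higher (0.79, standard error 0.13, adjusted p = 0.004), at 78.1, 72.04, 61.8 and 61.4 TPM and 2.88, 2.68, 4.93 and 5.21 TPM. The core TGACNNNGC was present in the promoter windows of 15 of 44 members with an entry (34.1%), against 16.1% of genes of all kinds. Members shared with the canonical targets are counted in both lists.

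The study also tied 15 lncRNAs to NFE2L2 mutation in tumours, and in these libraries most were rare. RP1-27K12.2, whose span overlaps that of GCLC on the minus strand of chromosome 6, had 875, 652, 689 and 580 reads. Since 6.14% of the exon length of GCLC overlaps it, reads of that stretch could belong to either gene. RP11-284F21.10 and RP11-284F21.9, neighbours on the minus strand of chromosome 1, had 152, 142, 196 and 155 and 82, 100, 136 and 120 reads, and RP11-445P17.8 on chromosome 10 had 46, 43, 61 and 57 reads. LINC00942 had 11, 14, 22 and 20 reads in the row of its GENCODE identifier. The authors' methods name a RefSeq model for it, because its strand is wrong in GENCODE v19. Which model this row counts is not shown. In strand-specific libraries a row on the wrong strand would miss the transcript, so these counts do not give its level. RP11-345L23.1 (21, 21, 16 and 9 reads) had few reads in every library, and 5 more of the 15 had 4 to 24. AC012501.2, WNT5A-AS1, RP11-311F12.2 and AC009784.3 had 0 reads in all 4 libraries, which allows a level of up to 0.0770 to 0.0844 CPM, the value of 3 reads. Intervals from read counts cover counting error only.

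The redox families, several of whose leading members are also NRF2 targets, were on to different degrees. Aldo-keto reductases were mostly on (10 of 13): the aldose reductase AKR1B1 stood at 2223, 2223, 2368 and 2419 TPM, after AKR1B10 and before AKR1C3, and AKR1D1, a bile acid enzyme, was at the floor with at most 3 reads. Aldehyde dehydrogenases were on in 15 of 19 cases. After ALDH1A1 and ALDH3A1 came the mitochondrial ALDH1B1 (162, 183, 159 and 177 TPM) and ALDH9A1 (160.2 TPM on average), and ALDH3B2 was at the floor.

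Only 10 of 22 glutathione S-transferases were on, below the 61.55% of all coding genes. GSTP1, the pi class enzyme, stood at 1168, 1168, 1084.5 and 1087 TPM, the omega class GSTO1 at 267, 286, 277 and 264 TPM, the membrane enzyme MGST1 at 192, 196, 194 and 192 TPM and GSTK1 at 65.2 TPM on average. By contrast 8 members were at the floor, among them GSTT1 (0 reads), GSTT2B (0 reads), HPGDS (0 reads) and GSTM1 (at most 1 read). Of their 50-base words, GSTT2B shares 87.4% and GSTM1 58.3% with other genes, so the counts of these 2 genes are uncertain. GSTT1 and GSTM1 are often deleted from human genomes. MGST2 (50.7, 46.3, 36.2 and 35.4 TPM) was lower with duplex 2 (edgeR log2 difference −0.51, standard error 0.07, adjusted p = 0.0028).

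The glutathione and thioredoxin systems were on in 23 of 24 cases, with PRDX5 at 1002 TPM as the fourth highest after TXN, PRDX1 and TXNRD1. PRDX2 was the single member that was low (31, 23, 16 and 14 reads), but it lies on the same strand inside the span of HOOK2, and its count is uncertain. Peroxidases and superoxide dismutases were on in 8 of 16 cases. After GPX2 followed SOD1, the cytosolic superoxide dismutase (501, 506, 503 and 509 TPM), GPX4, which protects membranes from lipid peroxides (434, 445, 362 and 383 TPM), and GPX1 (397 TPM). At the floor, GPX5, GPX6, GPX7 and SOD3 had 0 reads, and the leukocyte and secretory peroxidases MPO, LPO and EPX had at most 1. SOD2 had no identifier in the annotation under that name and was not read.

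NADPH oxidases, whose purpose is to make superoxide, were on in 3 of 15 cases. CYBA, the p22phox subunit, stood at 146, 125, 106 and 106 TPM and was lower with duplex 2 (edgeR log2 difference −0.43, standard error 0.08, adjusted p = 0.008), and NOXA1 (5.43, 5.32, 5.94 and 6.17 TPM) was also on. Of the list, 12 members were low or at the floor, with 0 reads for NOX3 and DUOXA2, at most 1 for NOX4 and DUOX1 and at most 3 for DUOX2. NADPH-producing enzymes were on in 15 of 16 cases, with PGD, TKT and IDH1 among the highest.

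A549 is a lung adenocarcinoma line, and lung markers were read with that in mind. Lung lineage transcription factors were on in 14 of 21 cases (66.67%), near the 61.55% of all coding genes. NKX2-1, the factor that specifies lung epithelium and marks most lung adenocarcinomas, had 0, 0, 1 and 0 reads. Another gene overlaps 32.6% of its exon length. The highest factors are also expressed in other epithelia: ID2 (162, 180.4, 182 and 208 TPM), CEBPD (199, 169.98, 161 and 157 TPM), KLF5 (132, 111, 119.7 and 102 TPM) and ELF3 (93.3 TPM). GRHL2, an epithelial junction factor, and HOPX had at most 1 read, and FOXP2 at most 3. ELF3 (edgeR log2 difference −0.43, standard error 0.08, adjusted p = 0.00811) and the goblet cell factor SPDEF (−0.81, standard error 0.12, adjusted p = 0.00331) were lower with duplex 2, SPDEF at 52.3, 39.9, 27.9 and 27.3 TPM.

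Alveolar type 2 markers, the surfactant-making cells with which A549 is often compared, were on in 4 of 12 cases. LPCAT1, which makes surfactant lipid but also acts in other cells, stood at 134, 112, 124 and 123 TPM, the lamellar body transporter ABCA3 at 22.6, 22.7, 26.3 and 23.95 TPM, CTSH at 4.45, 5.09, 5.42 and 5.43 TPM and NAPSA at 3.19 TPM. The surfactant protein genes SFTPA1 and SFTPB had 0 reads, SFTPA2 at most 1, SFTPC at most 6 and SFTPD at most 8, and SLC34A2, a phosphate transporter of these cells, had at most 2. The lung and alveolar type 2 markers were thus on only in part: NKX2-1 and the surfactant protein genes were at or near the floor.

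Alveolar type 1 markers were divided as well. The caveolin gene CAV1 (191, 226, 207 and 233 TPM), GPRC5A (93.9, 105, 116 and 117 TPM), CAV2 (81.4, 90.5, 66.01 and 69.1 TPM) and EMP2 (17.9 TPM) were on, whereas PDPN and CLIC5 had 0 reads and the water channel AQP5 at most 2. CAV2 was lower with duplex 2 (edgeR log2 difference −0.42, standard error 0.07, adjusted p = 0.00574).

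Airway markers were on in 5 of 20 cases, led by the protease inhibitor SLPI at 215, 155, 122 and 108 TPM, which was lower with duplex 2 (edgeR log2 difference −0.76, standard error 0.14, adjusted p = 0.00763), then by TPPP3 (23.4, 19.4, 24.8 and 25.6 TPM), the mucin MUC5B (11.8, 9.58, 9.03 and 7.14 TPM) and MUC5AC (2.73 TPM). The club cell genes SCGB1A1 (at most 1 read), SCGB3A1 and SCGB3A2 (0 reads) were at the floor, as were the basal keratin KRT14, MUC4, TFF3, BPIFA1 and CYP2F1.

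Of the neuroendocrine markers, UCHL1, a ubiquitin hydrolase, was abundant at 989.5, 1087, 1024 and 1067 TPM, but NEUROD1, INSM1 and GRP had 0 reads. DDC (23.8, 19.8, 10.999 and 10.4 TPM), CHGB (14.299, 9.44, 13.98 and 11.9 TPM) and SYP (3.18 TPM) were on at lower levels, and DDC was lower with duplex 2 (edgeR log2 difference −1.10, standard error 0.11, adjusted p = 0.000382).

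Both epithelial and mesenchymal genes were on. Simple keratins dominated the epithelial list, KRT18 at 5372, 5238, 5592 and 5373 TPM, KRT8 at 3101, 2922, 2919 and 2966 TPM and KRT7 at 1063, 1319, 1306 and 1469 TPM. Of this list 10 of 13 members were on (76.92%), beside 61.55% of all coding genes. The adherens junction gene CDH1 (148, 112, 91.7 and 80.3 TPM) was the fourth highest and was lower with duplex 2 (edgeR log2 difference −0.67, standard error 0.11, adjusted p = 0.00586), and so was CLDN7 (−2.29, standard error 0.37, adjusted p = 0.00448), which was low with 39, 47, 6 and 11 reads. Mesenchymal genes were on in 9 of 13 cases (69.23%), near the 61.55% of all coding genes. VIM stood at 629, 649, 710.4 and 708 TPM, the matrix gene FN1 at 198, 118, 145 and 114.8 TPM, CDH2 at 26.1, 26.7, 32.5 and 30.6 TPM and ZEB1 at 28.9 TPM, while COL1A2 had at most 2 reads. In bulk libraries, fewer cells of a kind and less RNA per cell cannot be told apart, so these values do not show whether single cells carried both programmes.

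Hepatic-like genes formed the area with the smallest share on (46 of 104), and yet several liver products were on. Hepatic transcription factors were on in 11 of 16 cases (68.75%), near the 61.55% of all coding genes. CEBPB, an acute phase factor, stood at 368, 369.9, 336 and 372 TPM, the pioneer factor FOXA2 at 40.3, 35.8, 37.2 and 39.03 TPM, HNF4A, the central hepatocyte nuclear receptor, at 34.1, 23.9, 19.2 and 17.2 TPM and FOXA1 at 13.5 TPM. HNF4A was lower with duplex 2 (edgeR log2 difference −0.74, standard error 0.13, adjusted p = 0.00809), a call that held in 2 of 6 other settings. The xenobiotic receptors NR1I2 (at most 2 reads) and NR1I3 (0 reads) and the bile acid sensor partner NR0B2 were at the floor.

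Hepatocyte secreted proteins were on in 10 of 30 cases. Vitronectin (VTN) stood at 216, 187, 164 and 159 TPM, the retinol carrier RBP4 at 68.7, 46.1, 30.1 and 29.7 TPM, the fibrinogen-like FGL1 at 55.9, 37.6, 26.5 and 22.8 TPM and APOH at 30.2 TPM. RBP4 and FGL1 were lower with duplex 2, with edgeR log2 differences of −1.01 (standard error 0.16, adjusted p = 0.00419) and −0.996 (standard error 0.16, adjusted p = 0.00384), and so was transferrin (TF, −1.77, standard error 0.27, adjusted p = 0.0034), with 737, 366, 165 and 152 reads. Albumin (ALB) was low at 2.18, 1.21, 0.863 and 0.706 TPM, highest in duplex 1 replicate 1. The apolipoprotein genes APOA2 and APOC3 had 0 reads.

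Of the complement and coagulation genes, 15 of 27 (55.56%) were on, near the 61.55% of all coding genes. All 3 chains of fibrinogen were on: FGA at 231, 141, 147 and 121 TPM, FGG at 172, 103, 99.2 and 80.1 TPM and FGB at 106, 62.8, 57.4 and 45.5 TPM, each highest in duplex 1 replicate 1 and lowest in duplex 2 replicate 2. The complement protease gene C1S stood at 89.7, 79.04, 87.04 and 85.2 TPM. F9, PLG, C8A and C8B had 0 reads, so the clotting factor of haemophilia B and plasminogen were not detected at this depth. Across the list no member passed the edgeR test between duplexes.

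Hepatocyte metabolism was on in 10 of 31 cases. Its highest member, CYP24A1, which breaks down vitamin D, stood at 1917, 1894, 2127 and 1972 TPM and rank 39, though it is chiefly a kidney enzyme. The urea cycle gene ASS1 stood at 169, 157, 129 and 129 TPM, CYP1B1 at 107, 91.996, 81.8 and 83.1 TPM and the mitochondrial urea cycle gene CPS1 at 68.6 TPM, whereas ARG1, the last step of that cycle, and the bile acid enzymes CYP7A1 and CYP8B1 had 0 reads. OTC, a further urea cycle gene, was at the floor too. ASS1 (edgeR log2 difference −0.41, standard error 0.06, adjusted p = 0.00367) and the asialoglycoprotein receptor gene ASGR1 (−1.57, standard error 0.27, adjusted p = 0.00613) were lower with duplex 2.

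Hepatic-like genes also shared a pattern over the libraries. Of 78 members above the floor, 57 (73.1%) were highest in duplex 1 replicate 1, against 3129 of 14568 coding genes above the floor (21.5%). Lowest in duplex 2 replicate 2 were 39 of the 78, against 2954 of the 14568. Of the complement and coagulation genes, 17 of 21 were highest in duplex 1 replicate 1, and of the canonical NRF2 targets 23 of 39. Over the 66 hepatic-like genes tested, the median log2 difference of duplex 2 from duplex 1 was −0.47 and 56 values were negative. The median was −0.0082 over all tested coding genes, and 8432 of all 17261 tested genes, coding or not, had negative values. Of the 66 hepatic-like genes, 6 passed the test, all lower with duplex 2, where 1.51% of all tested genes were called lower. The medians of the 4 hepatic-like lists stayed negative with each of the 4 other scalings and tools tried, all with the same filter. A gene counted as above the floor, or was tested, if any 1 library reached the limit. Members with few reads can thus enter through the library where they are high. Of the 78 members, 32 were low, against 2625 of the 14568 coding genes. The values above are not given for a filter independent of the highest library. Duplex 1 replicate 1 also had the largest share of reads on the 5 most abundant rows, none typed as coding (8.23% of reads on genes), and the part of these rows in the pattern was not tested.

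**Figure D4:**
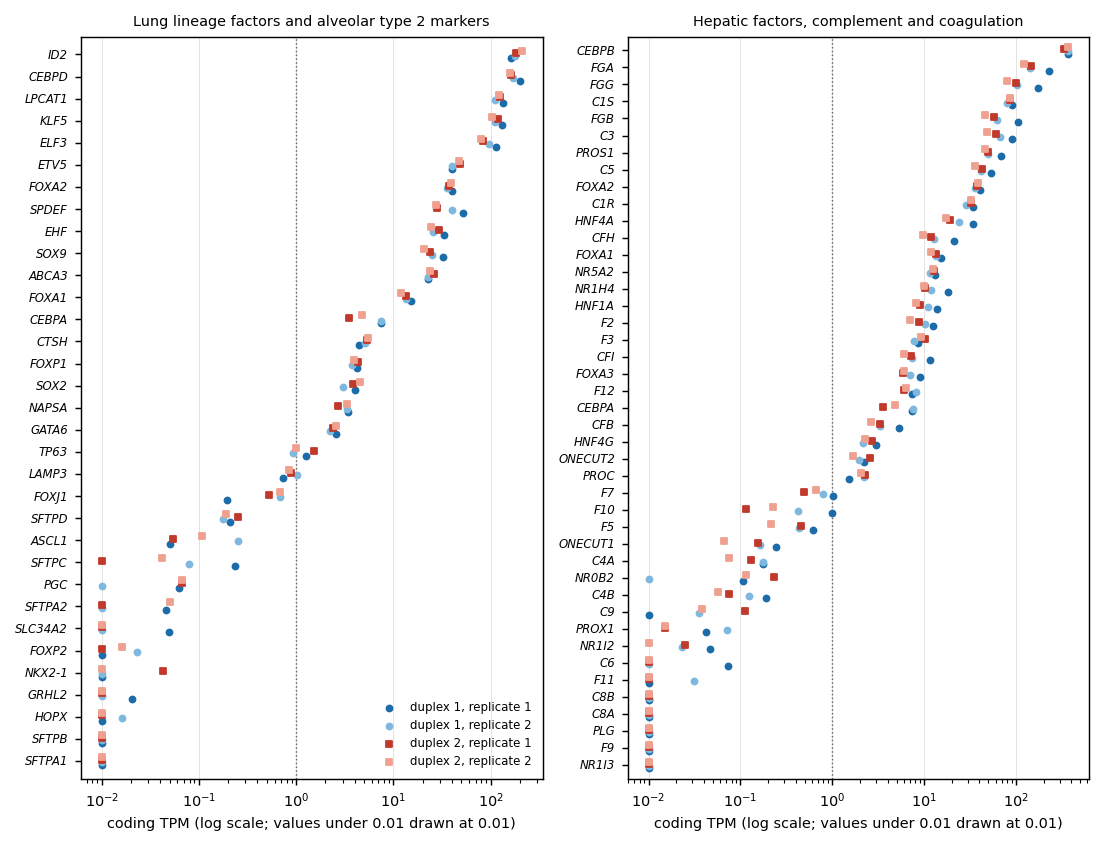
Coding TPM (log scale, values under 0.01 drawn at 0.01) in each of the 4 control siRNA libraries for lung lineage factors with alveolar type 2 markers (left) and for hepatic factors with complement and coagulation genes (right), and a dotted line at 1 TPM. NKX2-1, SFTPA1 and SFTPB lie at the left edge of the first panel, and FGA, FGG and FGB of the second have their highest point in duplex 1 replicate 1.

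Growth factor genes were on in 79 of 147 cases. Among EGF family ligands (8 of 11 on), epiregulin (EREG) stood at 63.1, 89.6, 85.9 and 103 TPM, the neuregulin NRG1 at 19.9, 25.4, 28.2 and 29.7 TPM, HBEGF at 11.2, 15.3, 16.2 and 15.7 TPM and TGFA at 14.299 TPM, and EREG and HBEGF were lowest in duplex 1 replicate 1. NRG3 had 0 reads. FGF ligands were the emptiest family, with 2 of 22 on: FGF2 stood at 85.99, 103, 113 and 114.6 TPM and FGF18 at 3.25, 5.10, 5.79 and 5.52 TPM, and 11 members were at the floor, of which FGF3, FGF4, FGF6, FGF10, FGF14 and FGF23 had no read.

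Every PDGF and VEGF ligand was on (9 of 9), at modest levels: VEGFB at 44.01, 44.5, 50.97 and 46.3 TPM, PDGFD at 42.7, 37.9, 51.4 and 48.4 TPM, PDGFA at 37.98, 39.9, 38.1 and 38.3 TPM and VEGFC at 31.2 TPM. In the insulin-like family the 4 highest members were binding proteins. IGFBP4 stood at 2834, 2473, 2831 and 2615 TPM, IGFBP3 at 922, 594, 579 and 546 TPM, IGFBP7 at 378, 457, 463 and 511 TPM and IGFBP6 at 138 TPM, while IGF1 had at most 2 reads, INS 0 and the ligand IGF2 4, 10, 7 and 5. IGFBP3 was highest in duplex 1 replicate 1. IGFBP2 (edgeR log2 difference −0.49, standard error 0.09, adjusted p = 0.00727) and IGFBP5 (−1.48, standard error 0.23, adjusted p = 0.0041, at 4.87, 3.23, 1.85 and 1.21 TPM) were lower with duplex 2.

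TGF-beta superfamily ligands (13 of 25 on) were led by GDF15, a stress-induced cytokine, at 142, 178, 175 and 201 TPM, followed by TGFB1 (86.2, 81.1, 90.02 and 83.2 TPM), TGFB2 (72.7, 72.7, 78.3 and 73.2 TPM) and INHBB (41.1 TPM). INHBC, GDF5, NODAL and LEFTY2 were at the floor. Of the other growth factors (12 of 26 on), HDGF stood at 639.9, 639, 617 and 617 TPM, LIF at 96.8, 107, 121 and 121 TPM, the KIT ligand KITLG at 68.4, 63.8, 65.01 and 61.9 TPM and CCN1 at 45.1 TPM, and NTF3, PTN, CSF2, ANGPT2 and EPO were at the floor. None of the EGF, FGF, PDGF and VEGF, TGF-beta or other growth factor ligands passed the edgeR test between duplexes.

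Growth factor receptors were on in 28 of 44 cases (63.64%), near the 61.55% of all coding genes. TGFBR2 stood at 269, 241, 215 and 212 TPM, the ephrin receptor EPHA2 at 208, 225, 232 and 234 TPM and AXL, the GAS6 receptor, at 164, 213, 215 and 242 TPM. The endothelial and haematopoietic receptors KDR, FLT1, FLT3 and CSF1R were at the floor, as were ALK and ERBB4. MET, the hepatocyte growth factor receptor (chromosome 7 from 116312250 to 116438431 on the plus strand), stood at 89.3, 85.5, 277 and 272 TPM: the duplex 2 values were far above the duplex 1 values, with a log2 difference of 1.58 (standard error 0.06, adjusted p = 2.83e-06) in edgeR. The mock library stood at 259 TPM, near the duplex 2 values, so the mean of 4 libraries for MET (181 ± 108 TPM) describes neither duplex. ERBB3 (−1.13, standard error 0.21, adjusted p = 0.0093), FGFR4 (−0.68, standard error 0.11, adjusted p = 0.00559) and the collagen receptor DDR1 (−0.44, standard error 0.08, adjusted p = 0.009) were lower with duplex 2 and NTRK3 (0.47, standard error 0.07, adjusted p = 0.00268) was higher by the same test.

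A549 is known to lack the CDKN2A locus, and the 9p21 genes were read as a check of the line. CDKN2A and CDKN2B, the cell cycle inhibitors at its centre, and the interferon genes IFNA1 and IFNB1 had 0 reads in all 4 libraries. The neighbour MTAP was low (37, 36, 45 and 55 reads, 0.389 TPM on average). Of the other genes in the band, KLHL9 (45.2, 44.98, 66.1 and 60.8 TPM), FOCAD (34.6, 35.4, 41.3 and 41.9 TPM), MLLT3 (33.9, 31.4, 24.7 and 26.03 TPM) and IFNE (10.8 TPM) were on. KLHL9 (edgeR log2 difference 0.42, standard error 0.06, adjusted p = 0.00262) and IFNE (1.06, standard error 0.19, adjusted p = 0.00847) were higher and MLLT3 (−0.44, standard error 0.07, adjusted p = 0.00507) was lower with duplex 2. The interferon genes are silent in most unstimulated cells, so their zeros alone do not show a deletion.

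Few markers of other cells were on, beside 61.55% of all coding genes. Of 10 blood and immune markers 2 were on, CD14 (18.96, 14.1, 14.2 and 12.7 TPM) and ITGAM (1.52, 1.92, 2.11 and 2.13 TPM), and PTPRC, CD3E, MS4A1, LYZ, HBB and HBA1 had at most 3 reads. Of 9 endothelial and stromal markers 2 were on, ACTA2 (5.48, 5.52, 7.17 and 6.55 TPM) and COL1A1 (2.34, 2.26, 2.38 and 2.14 TPM), the remainder being low or, for DCN, at the floor. The reference genes were all on, with GAPDH at 11004, 10470.1, 8516 and 8734 TPM, ACTB at 3540.3, 3709, 3811 and 3813 TPM and RPLP0 at 1815, 1960.1, 1318 and 1449 TPM, of which RPLP0 was lower with duplex 2 (edgeR log2 difference −0.52, standard error 0.08, adjusted p = 0.00464).

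Of 413 listed genes tested between the duplexes, 32 passed, 5 higher with duplex 2 (MET, NTRK3, KLHL9, IFNE and SAMD5) and 27 lower, beside the 1.77% and 1.51% of all tested genes. In log2 terms they ran from −2.29 for CLDN7 to 1.58 for MET. Canonical NRF2 targets had 4 lower (PRDX1, GPX2, IDH1 and CBR1) and none higher of 40 tested, and their median difference was −0.14. PRDX1, with a difference of −0.41 (standard error 0.07, adjusted p = 0.00571) in edgeR, was the most abundant of the 32. All 32 lost their call without either duplex 2 library, where their log2 differences kept 73.2 to 122.5% of the size with all 4 libraries, and kept it without either duplex 1 library. With the filter of 1 read, which tests 27886 genes, 31 of the 32 lost it. ERBB3 passed in 1, HNF4A and DDR1 in 2, and ASGR1, IDH1, IFNE and SLPI in 3 of 6 further settings of tool, scaling and filter.

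**Figure D5:**
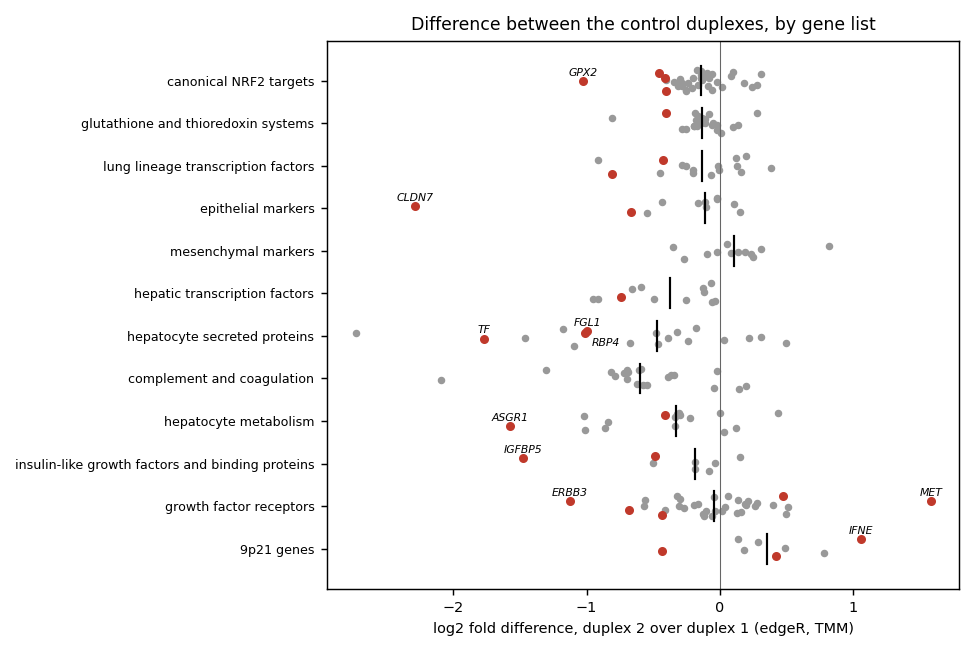
Log2 fold difference of duplex 2 over duplex 1 (edgeR, TMM) for the tested members of 12 gene lists, with 1 point per gene, red where the adjusted p was under 0.01, and a black bar at the median of each list. MET lies farthest to the right (1.58), CLDN7 is the farthest red point to the left (−2.29), and the bars of the 4 hepatic-like lists lie left of 0.

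The mock transfection gave nearly the same set of genes. Of the 11943 genes on in the controls, 11876 (99.44%) were on in the mock library, and of the 4836 at the floor, 4735 (97.91%) were at the floor there. NFE2L2 stood at 34.998 TPM, NQO1 at 3564 TPM and KEAP1 at 104 TPM in it, and the canonical NRF2 targets took 7.99% of coding TPM. FGF18, named here after its values were seen, had 6 reads in the mock library against 52 to 86 in the controls. For the 566 genes past the threshold between duplexes, the mock level was nearer to duplex 2 than to duplex 1 in 416 (73.5%), against 9829 of all 17261 tested genes (56.9%). By direction it was 270 of 305 genes higher with duplex 2 and 146 of 261 lower. Among the 32 listed genes it was 25. With 1 mock library these are descriptions without a test.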

How the data were processed

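Strand-specific total RNA libraries of A549 cells (RNeasy, TruSeq with Ribo-Zero Gold) were aligned by the authors with HISAT 0.1.6 to hg19 and counted with HTSeq 0.6.0 on GENCODE v19 genes. The deposited values are raw counts of reads per gene, with no normalization, and the rows for unassigned reads were left out here, so that 62.2 to 65.6% of all entries remained. Groups followed the labels: 2 libraries for each of 2 control duplexes, and the mock library as a further reading. The NFE2L2 siRNA libraries were not used.

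Gene types, positions and exon lengths came from GENCODE 44 mapped to GRCh37, where 55538 of 60291 gene rows had a type. A length from a later annotation can shift a TPM, and total RNA includes introns outside these lengths. The duplexes were compared with edgeR 4.0.16 in R 4.3.3 (TMM, quasi-likelihood test, Benjamini-Hochberg) over genes that reached 10 reads in any of the 4 libraries, prior count 0.125. On simulated data with 200 changed genes among 16908, the test recovered 97% of 2-fold and 100% of 4-fold changes with 0 false calls. The simulation gave every gene the same spread in all libraries and changed only genes above 1 CPM. It held no change under 2-fold, so these shares do not describe smaller differences or genes and libraries with a wider spread. The common coefficient of variation was 5.79% within duplexes, and the 2 libraries of each duplex differed beyond sampling noise.

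Named genes were the 20 most abundant by CPM, the 10 highest by TPM, the 4 highest members of each list, members at the floor, genes that differed between duplexes, the genes that the study names for this line, and lncRNAs. BACH1, BACH2, CUL3, ALB, MTAP, PRDX2, SFTPC, SFTPD, FGF18, IGF2 and the genes near the limit of 1 TPM fell outside that rule and were chosen after their values were seen. Members and lists were chosen with earlier results of these data known. SOD2, TXNIP, GDF10 and PECAM1 had no identifier in the annotation under those symbols. Some list members are counted with their lists and not reported here by name. Alternatives were DESeq2 1.42.0, limma-voom (limma 3.58.1), other scalings, filters, thresholds, gene lengths and left-out libraries.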

Additional observations from a re-analysis of the deposited data

Results flagged for a closer look

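For 118 named genes the gap between the most distant library and its nearest neighbour was divided by the range over the 4 libraries, and 7 genes exceeded Dixon's 95% critical value, where chance alone would give about 5.9. IGFBP3 gave a ratio of 0.8741, with duplex 1 replicate 1 at 922 TPM and the others at 546 to 594. HBEGF gave 0.8355, with the same library lowest at 11.2 TPM against 15.3 to 16.2, and UGT1A6 gave 0.8367, with it highest at 2.45 TPM against 1.59 to 1.73.

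CEBPB gave a ratio of 0.8825, with duplex 2 replicate 1 lowest at 336 TPM against 368 to 372. TGFB2 gave 0.9102 and the platelet chemokine gene PPBP 0.8647, each with duplex 2 replicate 1 highest, at 78.3 TPM against 72.7 to 73.2 and at 1.03 TPM against 0.617 to 0.673. PDGFA gave 0.8408, with duplex 1 replicate 2 at 39.9 TPM and the others at 38.0 to 38.3, a difference that is small beside the level.

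In the mock library, 4 coding genes that were at the floor in the controls had at least 10 reads. CRB2, a polarity gene, had 11 reads against 0 to 3 in the control libraries. CXCL6, a neutrophil chemokine, had 10 against 1 to 3, KY had 10 against 0 to 3 and ENSG00000270149 had 10 against 1 to 2. These genes had no test, since the mock transfection is 1 library.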

How the results depend on the processing

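Requiring 5 TPM in place of 1 left 2 alveolar type 2, 3 airway, 3 neuroendocrine, 4 EGF family, 1 FGF, 5 PDGF and VEGF, 8 TGF-beta superfamily, 1 blood and immune and 1 endothelial or stromal member on. FGF ligands had 1 member on with the mock library added, and blood and immune markers 1 with TPM over all genes, a scale chosen after seeing the data. A floor of 0 reads held 2677 coding genes, and the 10 coding genes with the most reads took 4.97% of the reads on coding genes on average. The median percentile of the canonical NRF2 targets was 98.81 with all coding genes ranked and 98.20 with duplex 2 alone, and the median percentile of the tumour-associated coding genes was 86.24 with all coding genes ranked and 78.81 by CPM. Genes past the threshold between duplexes numbered 4 after a filter of 1 read, which tests 27886 genes, 1736 at an adjusted p of 0.05, and 0 to 2056 over the fits without 1 library each. With the replicate number as a replicate block there were 2615 (1148 higher and 1467 lower, 56.1%), with all 32 listed genes among them. With 2 pairs the numbers are only names; deviations of equal numbers correlated at 0.145 over 15586 genes and at 0.556 over the 6161 above 32 CPM. DESeq2 called 778 genes, of which 521 were shared, and limma-voom 508, of which 504 were shared. The other 518 values of the main results were counted as unmoved, a label that still allowed sizeable changes. At 5 TPM in place of 1, lung lineage factors on went from 14 to 10 and hepatocyte secreted proteins from 10 to 7. Of the single gene values tried again, 583 were counted as unmoved, while 99 moved and 130 lost their call. None changed direction. Depth limits statements on genes under about 10 reads.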

Other observations

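Several identity genes lay next to the limit of 1 TPM, so their state depends on where it is set. Just inside it were the fetal liver gene AFP, with a lowest library of 1.02 TPM, the oocyte factor GDF9 (1.02 TPM) and the angiopoietin ANGPT1 (1.04 TPM). Just outside it were the neuregulin NRG4, whose lowest library had 0.831 TPM and highest 1.22, the mucin MUC1 (0.890 to 1.18 TPM) and TP63, a basal cell factor (0.924 to 1.53 TPM). These genes were chosen for their distance from the limit.

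Mitochondrial genes took 0.491 to 0.588% of the reads on genes in the 4 control libraries and 0.589% in the mock library, and both duplex 2 libraries lay above both duplex 1 libraries. Only MT-CO3 and MT-CO2 of them are among the 10 highest coding genes per length.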
